A study of Mus musculus with 9 samples.

Results

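The 10 genes described here encode enzymes that make, break down or convert ceramide and sphingosine in mouse lung. They were taken from the deposited gene table by symbol, and all 10 were found among its 56263 genes. They are 4 ceramide synthases (Cers2, Cers4, Cers5 and Cers6), 3 ceramidases (Acer2, Acer3 and Asah1), the acid sphingomyelinase Smpd1, the sphingomyelin synthase Sgms2 and the sphingosine kinase Sphk1.

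Ceramide is a fatty acid joined to a sphingoid base. Ceramide synthases attach the fatty acid, each preferring certain chain lengths, and ceramidases remove it again to release sphingosine. Sphingosine kinases phosphorylate sphingosine to sphingosine 1-phosphate (S1P), a lipid signal that acts through receptors on the cell surface, and sphingomyelin synthases and sphingomyelinases move ceramide into and out of sphingomyelin, a main lipid of the plasma membrane. In the lung they are known for roles in surfactant, in the tightness of the endothelium and in leukocyte traffic, and ceramide and sphingosine for a link to cell death.

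RNA was measured in 9 lung libraries of wild-type male BALB/c mice, an inbred strain, which were 6 to 8 weeks old when bought, before acclimation and the experiment. The control group (libraries C1 to C3) had no irritant and received vehicle by mouth. The model group (M1 to M3) was made to resemble chronic obstructive pulmonary disease with lipopolysaccharide, a bacterial endotoxin, put into the windpipe at 20 µg per mouse on days 1 and 14, and with cigarette smoke 3 times a day on the other days of a 42-day experiment. The QJHTD group (Q1 to Q3) had the same smoke and lipopolysaccharide and was also given Qing-Jin-Hua-Tan decoction, a herbal medicine, at the highest of the doses used. The design asks which genes differ between irritated and control lungs and between irritated lungs with and without the decoction. The animal experiment had 8 mice per group, and since the labels do not say in so many words that each library is a separate mouse, p values measure the spread between these libraries.

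Values are TPM, an abundance corrected for gene length and brought to one total in every library. Sequencing depth is unknown because this unit holds no counts, and genes that take much of a library lower all other values. Antibody and T-cell receptor segments took 0.296% to 0.605% of the TPM of control libraries and 36.2% to 43.7% of those of the model and QJHTD libraries, while the club cell gene Scgb1a1 took 21.3% to 23.8% and 1.18% to 3.16%. Over the 16080 genes tested the median log2 fold change was −0.47 between model and control, 0.05 between QJHTD and model and −0.44 between QJHTD and control. Changes are therefore also given relative to these medians. With TPM recomputed without those segments, Scgb1a1, hemoglobin and mitochondrial genes, the medians were −0.25, 0.05 and −0.21 in the same order (15786 genes). All 8 alveolar type 2 markers checked were above 0 in every library, as the lung label calls for, with a summed level of 24480 to 37544 TPM in the control group, 14632 to 16577 TPM in the model group and 15819 to 18071 TPM in the QJHTD group. In bulk tissue, fewer cells of a type and less RNA per cell cannot be told apart.

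In the control group the mean levels of the 10 enzymes ran from 2.09 to 101 TPM. Acer2 stood highest, followed by Cers2 with 91.0 TPM, and the libraries of these leading genes overlapped. Asah1 (35.7 TPM) and Cers5 (33.8 TPM) came next and overlapped as well, then Smpd1 (27.4 TPM) and Sphk1 (22.4 TPM). Cers4 (16.9 TPM) and Acer3 (16.5 TPM) overlapped, and Cers6 (4.02 TPM) and Sgms2 (2.09 TPM) were lowest. In the model group the order changed. Cers2 and Asah1 led with 80.1 and 46.0 TPM, Acer2 was in the fifth place, and Cers4 was last with 4.83 TPM below Sgms2 (8.86 TPM) and Cers6 (8.30 TPM), whose libraries overlapped. The QJHTD group had the same first 7 genes in the same order as the model group, and Sgms2 was last with 5.06 TPM.

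**Figure D1:**
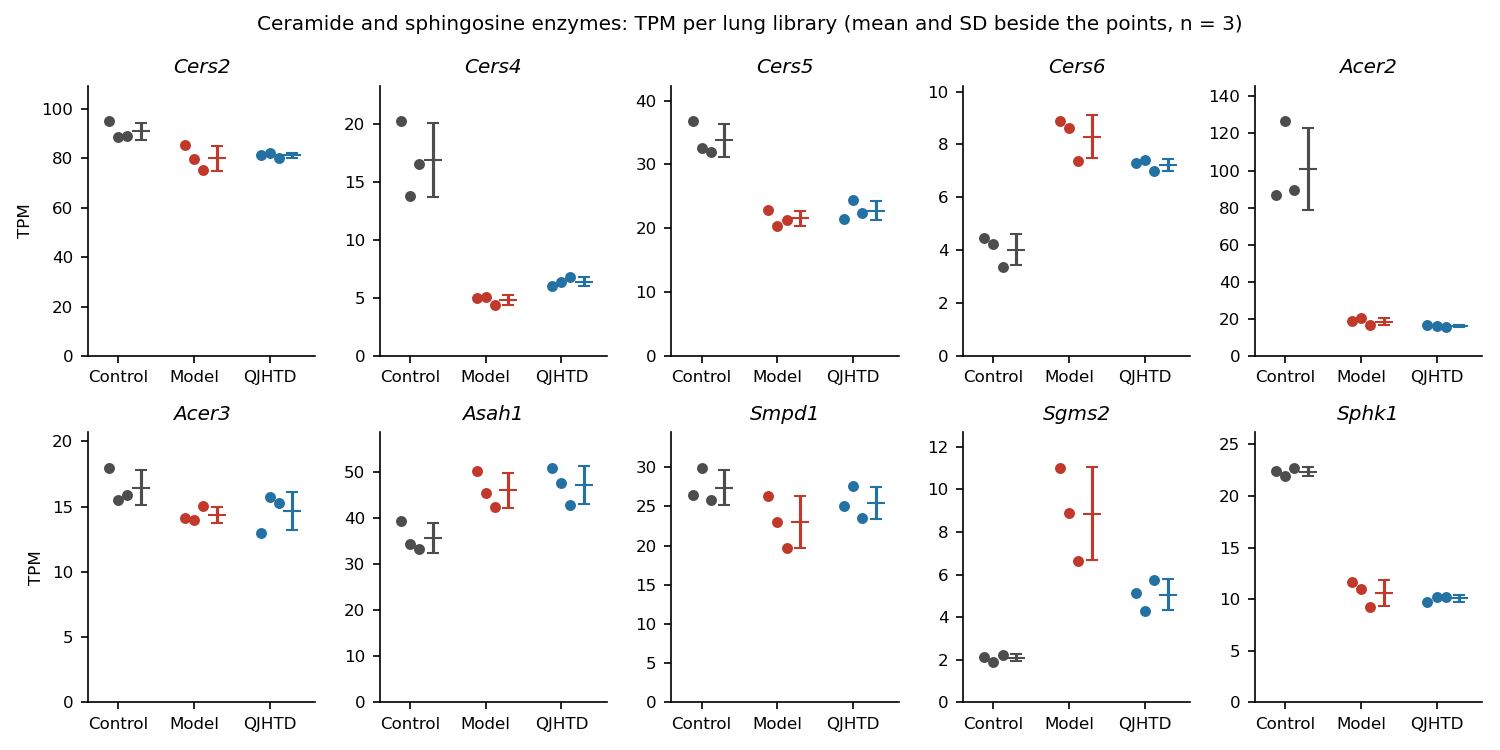
Level of each of the 10 enzymes in TPM (vertical axis, from 0) in the 9 lung libraries, with 3 points a group and the mean and SD beside them. Acer2, Cers4 and Sphk1 of the model and QJHTD libraries lie well below those of the control libraries, and Sgms2 is highest in the model group, with the QJHTD libraries between.

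Between model and control, 3 of the 10 enzymes rose (Sgms2, Cers6 and Asah1), 4 fell (Acer2, Cers4, Sphk1 and Cers5) and 3 did not pass the test (Cers2, Acer3 and Smpd1). The test was limma on log2(TPM + 1), with p adjusted by the Benjamini-Hochberg method over all genes tested and a call at an adjusted p under 0.05. Of all genes tested, 73.1% were called, 16.6% higher and 56.5% lower, so that 7 calls among 10 enzymes lie near the background. Every model library was above every control library for 3 of the 10 and below for 6, against 17.3% and 58.5% of all genes. The 10 had a median log2 fold change of −0.22, against −0.47 for all genes. When the libraries were put on the scale of their median gene (median-ratio rescaling), 5 were higher and 3 lower, while the background became 31.8% higher and 28.5% lower. The falls of Acer2, Cers4 and Sphk1 and the rises of Sgms2, Cers6 and Asah1 passed the test under all 3 other scalings tried. The share of all genes that did so was not counted.

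Cers2 makes ceramides with very long fatty acids and lies on chromosome 3 (95314791 to 95323599, plus strand, GRCm38). It had 95.1, 88.9 and 89.1 TPM in the control libraries, 85.5, 79.6 and 75.2 TPM in the model libraries and 81.4, 82.2 and 80.1 TPM in the QJHTD libraries. All model libraries were below all control libraries, but the gap was small and the difference missed the threshold (log2 fold change on the log2(TPM + 1) scale −0.18, SE 0.075, adjusted p = 0.0514 from limma). Its sign turned under median-ratio rescaling, to 0.38 with an adjusted p of 0.0068, and with TPM recomputed without receptor segments, hemoglobin, mitochondrial genes and Scgb1a1, to 0.10. As deposited, it passed without M1 (adjusted p = 0.0369) and with no filter on low genes (0.0400). The gene overlaps Setdb1 on the other strand, which had 10.7, 6.45 and 7.15 TPM in the control, model and QJHTD groups, and an antisense transcript with 1.44, 2.83 and 1.90 TPM. Whether the reads were counted by strand is not given in the sources used here.

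Cers4, a synthase for long and very long chains (chromosome 8, 4493026 to 4531680, plus strand), had 20.3, 13.8 and 16.6 TPM in the control libraries, 5.01, 5.12 and 4.36 TPM in the model libraries and 6.01, 6.38 and 6.79 TPM in the QJHTD libraries. The lowest control library was well above every irritated one. Cers4 fell in the model group by 1.60 on the log2(TPM + 1) scale (SE 0.137, adjusted p = 1.2e-05 from limma), and the control mean was 3.50 times the model mean. Relative to the median gene the change was −1.13, and 7.54% of the genes tested fell further. The predicted gene Gm36956 overlaps it on the opposite strand and averaged 3.21 TPM in the control group and 0.337 TPM in the QJHTD group and was listed at 0 in every model library.

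Cers5, which makes ceramides with palmitate (chromosome 15, 99734881 to 99772885, minus strand), had 36.8, 32.6 and 32.0 TPM in the control libraries. The model libraries had 22.8, 20.4 and 21.3 TPM and the QJHTD libraries 21.4, 24.4 and 22.5 TPM. It fell by 0.62 on the same scale in the model group (SE 0.090, adjusted p = 0.00027 from limma). That is close to the median gene, with a difference of −0.15 from it, and the call was lost under median-ratio rescaling (−0.075, adjusted p = 0.371).

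Cers6, another synthase for palmitate ceramides (chromosome 2, 68861441 to 69114282, plus strand), moved the other way. Its libraries had 4.47, 4.22 and 3.38 TPM in the control group, 8.88, 8.63 and 7.39 TPM in the model group and 7.31, 7.40 and 6.98 TPM in the QJHTD group. Every irritated library was above every control library. Cers6 rose by 0.89 in the model group (SE 0.117, adjusted p = 0.00016 from limma), which was 1.36 above the median gene, and the ratio of the mean TPM was 2.06.

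A share of the summed TPM of an enzyme family within a library does not depend on the rest of that library. The 6 ceramide synthases summed, as deposited, to 146 TPM in the control group, 115 TPM in the model group and 118 TPM in the QJHTD group. Unlike a share, this sum depends on the scaling of the libraries. Cers2 made up 62.3% ± 1.56 (SD, n = 3) of this sum in the control group, against 69.5% ± 0.255 for the model and 68.8% ± 0.941 for the QJHTD libraries. The share of Cers4 went from 11.5% ± 1.51 to 4.19% ± 0.256 and 5.42% ± 0.349 in the same order, and that of Cers6 from 2.75% ± 0.326 to 7.20% ± 0.381 and 6.12% ± 0.149. Cers6 thus took a larger share than Cers4 in every irritated library and a smaller one in every control library. Cers5 had 23.1%, 18.7% and 19.3% of the sum, and Cers1 and Cers3, the synthases known from brain and from skin and testis, together stayed under 1 TPM in every library.

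**Figure D2:**
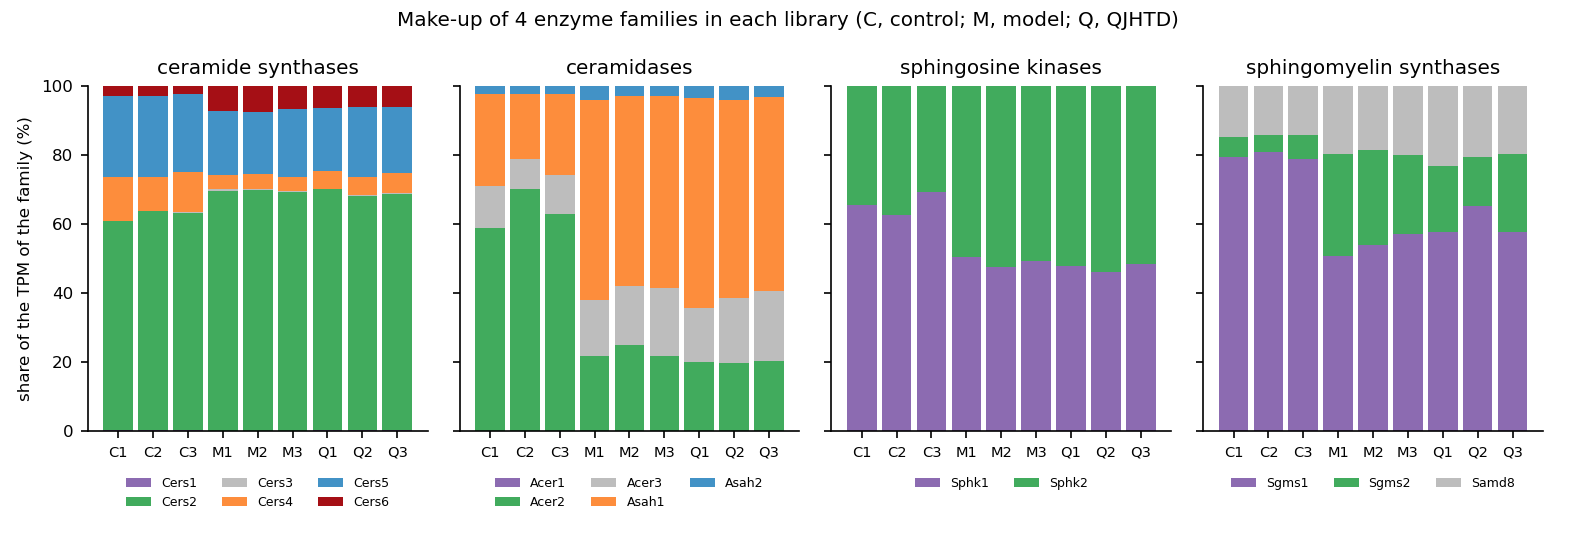
Share of each enzyme in the summed TPM of its family (vertical axis, percent) in each of the 9 libraries (C, control; M, model; Q, QJHTD). Acer2 makes up most of the ceramidases in each control library (mean 63.9%), and Asah1 in each model and QJHTD library (means 56.3% and 58.2%).

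The promoters of Cers4 and Cers6 are shown because these synthases of one family moved in opposite directions. Each window runs from 250 bases before the RefSeq start to 50 after it (RefSeq, GRCm38.p6), is written 5′ to 3′ on the strand of the gene, and has motif matches in capitals. The motifs searched, on both strands, were the GC box GGGCGG, the CCAAT box CCAAT, the E-box CACGTG, the AP-1 site TGANTCA, the TATA box TATAAA, the Ets core GGAAG and the RUNX site TGTGGT. They occur in 35.7%, 37.4%, 7.15%, 7.81%, 13.6%, 71.4% and 16.8% of 32851 promoter windows of this length. The window of Cers4 is chr8:4493155-4493454 (plus strand), that of Cers6 chr2:68861191-68861490 (plus strand).
Cers4 promoter: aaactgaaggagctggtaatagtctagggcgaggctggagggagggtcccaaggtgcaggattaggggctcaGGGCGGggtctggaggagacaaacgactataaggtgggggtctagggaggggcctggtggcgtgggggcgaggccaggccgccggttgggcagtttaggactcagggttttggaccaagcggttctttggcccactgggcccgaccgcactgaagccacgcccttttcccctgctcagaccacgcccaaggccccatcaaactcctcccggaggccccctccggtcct
Cers6 promoter: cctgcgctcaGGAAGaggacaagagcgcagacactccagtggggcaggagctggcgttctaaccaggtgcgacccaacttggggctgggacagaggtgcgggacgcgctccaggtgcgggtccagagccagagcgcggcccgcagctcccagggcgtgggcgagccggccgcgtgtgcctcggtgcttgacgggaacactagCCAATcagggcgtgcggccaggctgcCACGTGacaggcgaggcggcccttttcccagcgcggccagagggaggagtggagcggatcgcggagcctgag
The Cers4 window holds 1 GC box, and 64.3% of its bases are G or C. Its RefSeq start lies 379 bases from the start of the gene in GENCODE. The Cers6 window holds 1 Ets core, 1 CCAAT box and 1 E-box, the least frequent of the 7 motifs, and is 70.0% G or C, against a median of 52.7% over all windows. A match describes letters in this window and is no measure of binding.

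Acer2, an alkaline ceramidase of the Golgi (chromosome 4, 86874396 to 86934822, plus strand), had the largest fall of the 10 enzymes. Its control libraries held 86.6, 127 and 89.3 TPM, its model libraries 18.6, 20.5 and 16.5 TPM and its QJHTD libraries 16.8, 16.2 and 15.5 TPM. The control libraries differed among themselves, with C2 the highest, yet the lowest of them was far above the highest irritated library. Acer2 fell by 2.37 on the log2(TPM + 1) scale in the model group (SE 0.147, adjusted p = 2.1e-06 from limma). The control mean was 5.44 times the model mean, the change was −1.89 relative to the median gene, and 1.96% of the genes tested fell further.

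Asah1, the acid ceramidase of lysosomes (chromosome 8, 41340197 to 41374773, minus strand), had 39.3, 34.4 and 33.3 TPM in the control libraries, 50.1, 45.4 and 42.4 TPM in the model libraries and 50.9, 47.6 and 42.8 TPM in the QJHTD libraries. The model and control libraries did not overlap, and the distance between the highest control and the lowest model library was small. The rise was 0.36 in the model group (SE 0.103, adjusted p = 0.0119 from limma). It was 0.83 above the median gene, and the adjusted p ranged from 0.00021 to 0.0473 over 19 alternatives.

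Acer3, the alkaline ceramidase of the endoplasmic reticulum and Golgi (chromosome 7, 98206389 to 98321208, minus strand), ranged from 15.5 to 17.99 TPM in the control group, 13.96 to 15.1 TPM in the model group and 12.98 to 15.8 TPM in the QJHTD group. Model and control libraries lay apart by less than 1 TPM, and the difference of −0.18 (SE 0.1003) did not pass the test (adjusted p = 0.130 from limma). Its sign turned under each of the 3 other scalings, to 0.35 under median-ratio rescaling, 0.21 under quantile normalization and 0.091 with recomputed TPM, and it passed the test under the first 2 (adjusted p = 0.0031 and 0.0282).

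The ceramidases therefore differed between groups in make-up and, in the TPM as deposited, in total. The total depends on scaling, since the median gene fell by 0.47 between model and control, and it was not recomputed under the other scalings. The 5 ceramidases measured summed to 157 ± 20.9 TPM (SD, n = 3) in the control group, 81.6 ± 5.09 TPM in the model group and 80.8 ± 4.20 TPM in the QJHTD group. Acer2 made up 63.9% ± 5.78 of the sum in the control group, 22.7% ± 1.97 for the model libraries and 19.5% to 20.4% in the single QJHTD libraries. Asah1 made up 23.1% ± 3.82, 56.3% ± 1.51 and 58.2% ± 2.44 of it. In every control library Acer2 was above Asah1, and in each irritated library it was below. Acer3 had 10.7%, 17.7% and 18.2% of the sum, and the neutral ceramidase Asah2, known from the intestine, 2.34%, 3.27% and 3.59%.

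Sgms2, a sphingomyelin synthase of the plasma membrane (chromosome 3, 131318985 to 131491411, minus strand), was the lowest enzyme of the control group and had the largest rise. Its libraries held 2.13, 1.91 and 2.23 TPM in the control group, 11.0, 8.91 and 6.65 TPM in the model group and 5.13, 4.31 and 5.75 TPM in the QJHTD group. The 3 groups did not overlap, and the model libraries spread most. Sgms2 rose by 1.65 in the model group (SE 0.171, adjusted p = 3.8e-05 from limma), with a mean 4.24 times that of the control group, and was 2.12 above the median gene.

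Sgms1, the sphingomyelin synthase of the Golgi, went the other way, from 28.1 ± 2.58 TPM (SD, n = 3) in the control group to 17.7 ± 1.19 TPM in the model group and 16.7 ± 2.71 TPM in the QJHTD group. Its fall of 0.64 in the model group (SE 0.123, adjusted p = 0.0014 from limma) was not called under median-ratio rescaling or quantile normalization. With Samd8, which makes a relative of sphingomyelin, the synthases summed, as deposited, to 35.2, 32.9 and 27.6 TPM in the control, model and QJHTD groups. The share of Sgms2 was 5.98% ± 0.935 (SD, n = 3), 26.6% ± 3.36 and 18.6% ± 4.17 in that order, and Sgms1 stayed the most abundant in every library.

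The promoters of Acer2 and Sgms2 are shown because these genes had the largest fall and the largest rise of the 10. They were read and searched in the same way. Their windows are chr4:86874164-86874463 (plus strand) and chr3:131491394-131491693 (minus strand).
Acer2 promoter: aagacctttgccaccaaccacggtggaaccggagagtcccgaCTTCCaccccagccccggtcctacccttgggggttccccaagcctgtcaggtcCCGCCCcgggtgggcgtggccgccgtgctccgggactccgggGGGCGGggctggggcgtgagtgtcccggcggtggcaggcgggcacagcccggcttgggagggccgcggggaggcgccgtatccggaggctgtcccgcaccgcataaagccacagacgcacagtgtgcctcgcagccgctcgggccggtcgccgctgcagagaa
Sgms2 promoter: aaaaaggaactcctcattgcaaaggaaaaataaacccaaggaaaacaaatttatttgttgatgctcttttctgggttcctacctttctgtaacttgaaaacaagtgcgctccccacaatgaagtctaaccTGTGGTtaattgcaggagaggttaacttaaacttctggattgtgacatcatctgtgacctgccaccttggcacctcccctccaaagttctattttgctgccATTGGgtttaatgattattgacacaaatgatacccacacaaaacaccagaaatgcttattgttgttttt
The Acer2 window is 73.0% G or C and holds 2 GC boxes and 1 Ets core, some of them read on the minus strand as CCGCCC and CTTCC. That of Sgms2 is 39.0% G or C and holds 1 RUNX site and 1 CCAAT box, the latter as ATTGG. Neither window holds a TATA box, an E-box or an AP-1 site with the letters searched.

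Smpd1, the acid sphingomyelinase that releases ceramide from sphingomyelin (chromosome 7, 105554360 to 105558389, plus strand), had 26.5, 29.9 and 25.8 TPM in the control libraries, 26.3, 23.0 and 19.7 TPM in the model libraries and 25.1, 27.7 and 23.5 TPM in the QJHTD libraries. It was the only one of the 10 whose model and control libraries overlapped. The difference of −0.25 (SE 0.118, 95% interval −0.52 to 0.02) did not pass the test (adjusted p = 0.0849 from limma). It passed without M1, the highest model library (adjusted p = 0.0309), and its sign turned under each of the 3 other scalings (0.30, 0.095 and 0.028).

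Sphk1, the sphingosine kinase of the cytoplasm (chromosome 11, 116530925 to 116536674, plus strand), was even within groups, with 22.4, 21.9 and 22.8 TPM in the control libraries, 11.7, 11.0 and 9.26 TPM in the model libraries and 9.73, 10.3 and 10.3 TPM in the QJHTD libraries. Control libraries were far above all others. Sphk1 fell by 1.01 in the model group (SE 0.096, adjusted p = 2.3e-05 from limma), and the control mean was 2.10 times the model mean. Relative to the median gene the change was −0.54. An antisense transcript that overlaps it had 0.190 TPM in the control group and less in the others.

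Sphk2, the kinase found in the nucleus and mitochondria, had 11.7 ± 1.51 TPM (SD, n = 3) in the control group, 11.0 ± 1.35 TPM in the model group and 11.2 ± 0.714 TPM in the QJHTD group. Its libraries overlapped between groups, and its difference of −0.08 did not pass the test (adjusted p = 0.596 from limma). The sign turned under each of the 3 other scalings, and under median-ratio rescaling Sphk2 was called higher (0.45, adjusted p = 0.024 from limma). The share of Sphk1 in the sum of both kinases was 65.7% ± 3.34 (SD, n = 3) for the control libraries, 49.1% ± 1.44 for the model libraries and 47.4% ± 1.22 for the QJHTD libraries.

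**Figure D3:**
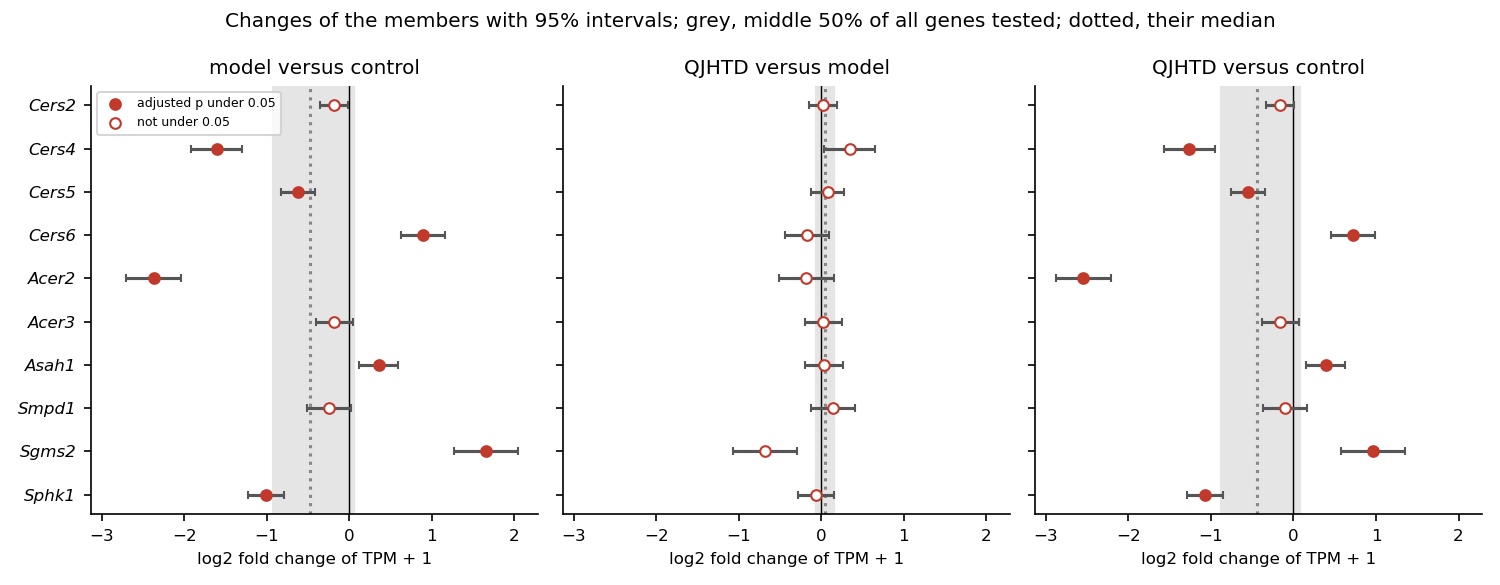
Log2 fold change of TPM + 1 (horizontal axis) of the 10 enzymes in the 3 comparisons, with 95% intervals from limma. Filled points passed an adjusted p of 0.05, the grey band is the middle 50% of all genes tested and the dotted line their median, −0.47, 0.05 and −0.44 from left to right. No point is filled between QJHTD and model.

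Markers of several cell types moved with these changes. Of all genes tested, 58.5% were lower in every model library than in every control library and 17.3% were higher, which is the background for the counts below. The summed level of 10 endothelial markers was 2464 to 2714 TPM in the control group, 323 to 360 TPM in the model group and 369 to 480 TPM in the QJHTD group, and all 10 were lower in every model library than in every control library. Of 9 alveolar type 1 markers 8 were lower in this sense (3315 to 4293 TPM in sum in the control group, 976 to 1129 TPM in the model group and 1034 to 1288 TPM in the QJHTD group). Of 8 ciliated cell markers, all were lower (818 to 1070 TPM, 125 to 392.2 TPM and 136 to 238 TPM), and of 7 club cell markers 6 were. Of the 8 alveolar type 2 markers, whose sums stand in the description of the libraries, 2 were lower, a smaller part than of all genes, and none higher. Of 10 monocyte and macrophage markers 9 were higher (3748 to 5212 TPM, 9570 to 11014 TPM and 9318 to 10663 TPM), as were all 10 neutrophil markers (161 to 363 TPM, 6573 to 13724 TPM and 4470 to 8139 TPM), of which Ly6g was at 0 in at least 1 library. Alveolar macrophage markers were divided, with 3 of 9 higher and 3 lower and sums of 522 to 695 TPM, 365 to 430 TPM and 321 to 387 TPM in the same order. All 8 plasma cell markers were higher (331 to 495 TPM, 9660 to 11561 TPM and 10009 to 12901 TPM). Of 8 fibroblast markers 6 were lower and 2 higher (2828 to 4036 TPM, 725 to 734 TPM and 713 to 995 TPM). All 7 smooth muscle markers were lower (440 to 596 TPM, 94.8 to 145 TPM and 80.4 to 174 TPM). Of 8 B cell markers 5 were higher and none lower (46.2 to 92.5 TPM, 214 to 261 TPM and 281 to 302 TPM). The same held for 5 of 8 T cell markers (38.9 to 53.1 TPM, 57.9 to 73.25 TPM and 72.1 to 104 TPM). The part of these cell types in the changes of the enzymes was not tested.

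Between QJHTD and model limma called none of the 10 enzymes. The background was 2 genes, or 0.0124% of those tested. At an unadjusted p under 0.05 there were 2 of the 10, Sgms2 and Cers4, against 6.84% of all genes, and the median log2 fold change of the 10 was 0.02 against 0.05 for all genes. The comparison shares the model libraries with the one above and its QJHTD libraries with the one below.

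Sgms2 had the largest difference. Each QJHTD library (4.31 to 5.75 TPM) was below each model library (6.65 to 11.0 TPM), as held for 3.81% of all genes tested. The log2 fold change was −0.68 (SE 0.171, 95% interval −1.07 to −0.30, unadjusted p = 0.0032, adjusted p = 0.480 from limma). The adjusted p ranged from 0.201 to 0.9997 over the alternatives, and the fold change from −0.85 to −0.53. Of the 10 neutrophil markers, 4 were lower in every QJHTD library than in every model library and none higher. Of 9 alveolar macrophage markers, 2 were lower in this sense and none higher. The part of these cell types in the difference was not tested. The mean of Sgms2 in the QJHTD group was 0.572 times that of the model group and still above the control level.

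Cers4 differed in the other direction, with each QJHTD library (6.01 to 6.79 TPM) above each model library (4.36 to 5.12 TPM), as held for 8.44% of all genes tested. Its log2 fold change was 0.34 (SE 0.137, 95% interval 0.03 to 0.65, unadjusted p = 0.0334, adjusted p = 0.698 from limma). Of the 10 endothelial markers, 6 were higher in every QJHTD library than in every model library. The same held for 4 of 8 T cell, 3 of 8 B cell and 2 of 8 plasma cell markers. The part of these cell types in the difference was not tested. For the other 8 enzymes the libraries of both groups overlapped. Their differences lay between −0.18 for Acer2 (95% interval −0.52 to 0.15) and 0.14 for Smpd1 (95% interval −0.12 to 0.41). The interval of Sphk1 ran from −0.28 to 0.15 and that of Asah1 from −0.20 to 0.27, which leaves room for modest differences either way.

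Between QJHTD and control the calls matched those between model and control gene by gene, with 3 higher and 4 lower, against a background of 70.7% called (17% higher and 53.7% lower). The values were −2.55 for Acer2, −1.26 for Cers4, −1.08 for Sphk1, −0.55 for Cers5, 0.39 for Asah1, 0.72 for Cers6 and 0.97 for Sgms2, with adjusted p between 1.6e-06 and 0.00795 from limma. Since both comparisons use the same control libraries, their likeness is not a separate result. Under median-ratio rescaling 6 were higher and 3 lower, against 31.8% and 28.2% of all genes.

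A set of 55 other genes of sphingolipid metabolism shows the setting of these enzymes, and 48 of them had enough signal to be tested. Between model and control 15 rose, 21 fell and 12 did not pass, where 16.6% of all genes tested were called higher and 56.5% lower. Their median log2 fold change was −0.14, against −0.47 for all genes. The split depended on scaling, with 25 higher and 7 lower under median-ratio rescaling (31.8% and 28.5% of all genes). Under all 4 scalings 15 rises and 7 falls were called. The share of all genes called under all 4 scalings was not counted, so such counts, here and by role below, have no background. None was called between QJHTD and model, where none had an unadjusted p under 0.05 either, against 6.84% of all genes.

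De novo synthesis starts from serine and palmitate. Of its 10 genes tested 6 fell and none rose in the TPM as deposited, and the share that fell was near the 56.5% of all genes. Sptlc1, a subunit of the first enzyme, had 26.7 ± 2.28 TPM (SD, n = 3) in the control group and 16.4 ± 1.38 TPM in the model group and fell by 0.68, whereas its partner Sptlc2 had 43.9 and 45.6 TPM and a difference of 0.06 that did not pass (adjusted p = 0.649 from limma). Ormdl3, which restrains that enzyme, fell by 0.62 and Sptssa, a small subunit of it, by 0.59. These falls were near that of the median gene, and none of the 3 was called under median-ratio rescaling. Kdsr, the enzyme of the next step, fell by 0.96 from 8.34 to 3.81 TPM, and this call held under all 4 scalings. Under the 3 other scalings Sptlc2 was called higher (0.62, 0.36 and 0.35, adjusted p = 0.0015, 0.022 and 0.027 from limma). The same held for Ormdl1 (0.48, 0.36 and 0.23), and for Degs1 under median-ratio rescaling alone (0.46, adjusted p = 0.0048 from limma).

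Of 7 other sphingomyelin enzymes tested 2 rose and 4 fell, with a share of falls near the 56.5% of all genes. Smpdl3b, a membrane phosphodiesterase related to Smpd1 and known from macrophages, rose by 1.74 from 2.18 ± 0.494 TPM to 9.59 ± 1.56 TPM (SD, n = 3 each). Smpd2, a neutral sphingomyelinase, fell by 1.08 from 22.4 to 10.02 TPM. Both calls held under all 4 scalings. Smpd4, another neutral sphingomyelinase, fell by 0.72 and lost the call under median-ratio rescaling. Samd8 did not pass as deposited (0.28, adjusted p = 0.0706 from limma) and was called higher under the 3 other scalings (0.76, 0.64 and 0.56).

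Of 7 other genes that make or remove S1P, 1 rose, 3 fell and 3 did not pass, against 16.6% higher and 56.5% lower among all genes. The lyase Sgpl1, which cleaves S1P irreversibly, rose, and the phosphatases Plpp1, Plpp3 and Sgpp1 fell. Sphk2 and the phosphatases Plpp2 (−0.18, adjusted p = 0.218 from limma) and Sgpp2 (0.012, adjusted p = 0.947) did not pass as deposited. Under median-ratio rescaling Sphk2, Plpp2 and Sgpp2 were called higher (0.45, 0.35 and 0.53, adjusted p = 0.024, 0.042 and 0.020 from limma). Sgpp2 was also called higher under quantile normalization (0.41, adjusted p = 0.047 from limma). Sgpl1 had 19.99, 20.4 and 18.3 TPM in the control libraries, 59.8, 49.1 and 51.6 TPM in the model libraries and 49.97, 46.3 and 43.5 TPM in the QJHTD libraries. Its rise was 1.40 in the model group (SE 0.098, adjusted p = 4.0e-06 from limma). Plpp1, a phosphatase of the cell surface, fell by 2.09 from 91.4 ± 4.14 TPM to 20.7 ± 0.16 TPM (SD, n = 3 each), and Plpp3 by 1.24 from 59.3 to 24.5 TPM. Sgpp1, a phosphatase of the endoplasmic reticulum, fell by 0.73 and lost the call under median-ratio rescaling.

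Within a library, the ratio of Sgpl1 to Sphk1 was 0.876 ± 0.0641 (SD, n = 3) for the control group, 5.05 ± 0.548 for the model group and 4.63 ± 0.459 for the QJHTD group. Sphk1 was thus slightly above the lyase in every control library and far below it in each irritated one. Sphk2, the other kinase that makes S1P, is not part of this ratio. The ratio of Asah1 to Acer2 was 0.366 ± 0.0914, 2.49 ± 0.251 and 2.91 ± 0.139, and the ratio of Sgms2 to Sgms1 was 0.0752 ± 0.0127, 0.497 ± 0.0908 and 0.312 ± 0.0874. The QJHTD libraries were above the model libraries in the ratio of Asah1 to Acer2 and below them in that of Sgms2 to Sgms1. These ratios were chosen after the values were seen and are given without a test.

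**Figure D4:**
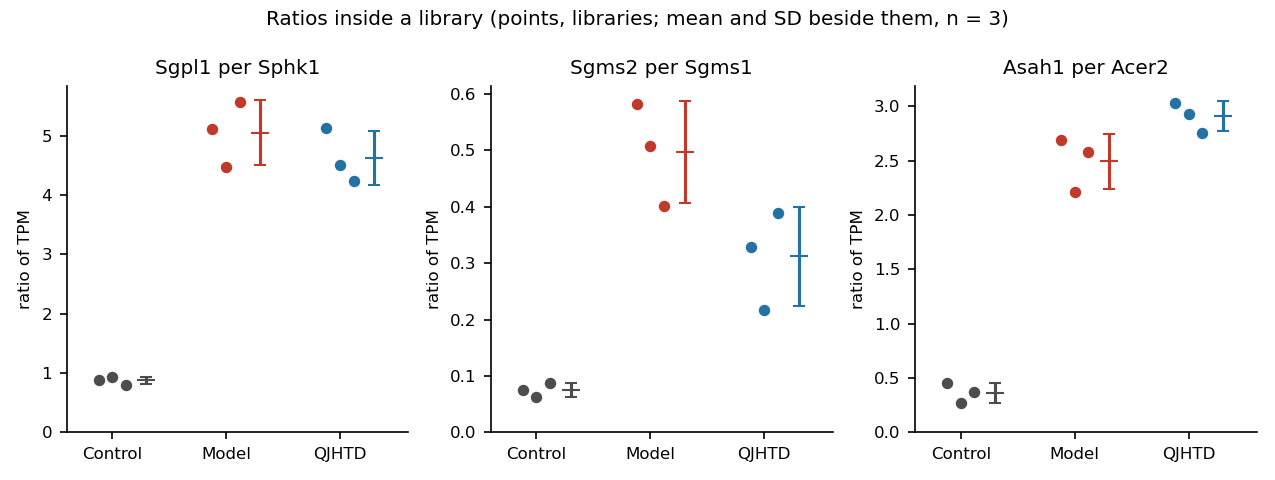
Ratio of TPM of 2 enzymes inside each library (vertical axes, from 0) for Sgpl1 and Sphk1, Sgms2 and Sgms1, and Asah1 and Acer2, with the mean and SD of 3 libraries beside the points. In all 3 panels the control libraries lie below every model and QJHTD library.

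Of 6 genes of S1P export and reception tested, 5 fell in the model group and none rose, where 56.5% of all genes fell. Under all 4 scalings 3 of them were called. S1pr1, the receptor that keeps endothelium tight and guides lymphocytes, had 78.7, 80.0 and 65.0 TPM in the control libraries, 19.9, 17.9 and 20.1 TPM in the model libraries and 19.7, 19.7 and 22.6 TPM in the QJHTD libraries. It fell by 1.89 (SE 0.106, adjusted p = 1.1e-06 from limma). Spns2, the exporter of S1P in endothelium, fell by 1.71 from 32.2 ± 1.58 TPM to 9.13 ± 0.645 TPM (SD, n = 3 each), and Mfsd2b, the exporter of red cells and platelets, by 1.07 from 2.05 to 0.450 TPM. S1pr3 fell by 0.80 and S1pr4 by 0.55, neither of them called under median-ratio rescaling, nor S1pr4 under quantile normalization. S1pr2 had 5.24 and 6.98 TPM, a difference of 0.36 that did not pass as deposited (adjusted p = 0.0596 from limma). Under the 3 other scalings S1pr2 was called higher (0.84, 0.73 and 0.64, adjusted p = 0.00092, 0.0022 and 0.0042 from limma). S1pr5, below the limit for testing, had 0.58 to 1.19 TPM in the control group and 0.04 to 0.12 TPM in the model group. Among the summed markers given above, those of endothelium, fibroblasts, smooth muscle and the epithelial types were lower alongside. Those of B cells, T cells and the other leukocytes, except alveolar macrophages, were higher. The part of these cell types in the changes of the S1P genes was not tested.

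Among genes that carry ceramide to other lipids, 3 of 7 rose and 2 fell, against 16.6% and 56.5% of all genes. Cerk, which phosphorylates ceramide, rose by 0.79 from 10.6 to 18.9 TPM, and the lactosylceramide synthases B4galt5 and B4galt6 by 0.90 and 0.87, all under each of the 4 scalings. St3gal5, which adds sialic acid to lactosylceramide, fell by 0.65 and lost the call under median-ratio rescaling and quantile normalization. The other fall, of Col4a3bp (−0.38), was called under none of the 3 other scalings and changed sign under median-ratio rescaling (0.15). Ugcg (0.16) and Cptp (−0.07) did not pass as deposited. Ugcg was called higher under the 3 other scalings (0.69, 0.55 and 0.44), and Cptp under median-ratio rescaling alone (0.43).

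Lysosomal breakdown of glycosphingolipids was the role with most rises, 9 of 10, where 16.6% of all genes rose. The median log2 fold change of the 10 genes was 1.13, against −0.47 for all genes. Psap, the precursor of the saposins that present lipids to these enzymes and to Asah1, had 363, 372 and 341 TPM in the control libraries, 2039, 1788 and 1791 TPM in the model libraries and 1949, 1953 and 1558 TPM in the QJHTD libraries. It rose by 2.38 (SE 0.126, adjusted p = 8.8e-07 from limma). Gla, the α-galactosidase, rose by 2.18 from 4.47 to 23.8 TPM, and Hexa, a subunit of β-hexosaminidase, by 1.34 from 53.2 to 136 TPM. The 9 rises were called under all 4 scalings, and Arsa, the arylsulfatase, which fell by 0.46, changed sign under median-ratio rescaling (0.049). Alongside, the summed neutrophil, monocyte and macrophage, plasma cell, B cell and T cell markers, given above, were higher. The summed alveolar macrophage markers were lower. The part of these cell types in the lysosomal rises was not tested.

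**Figure D5:**
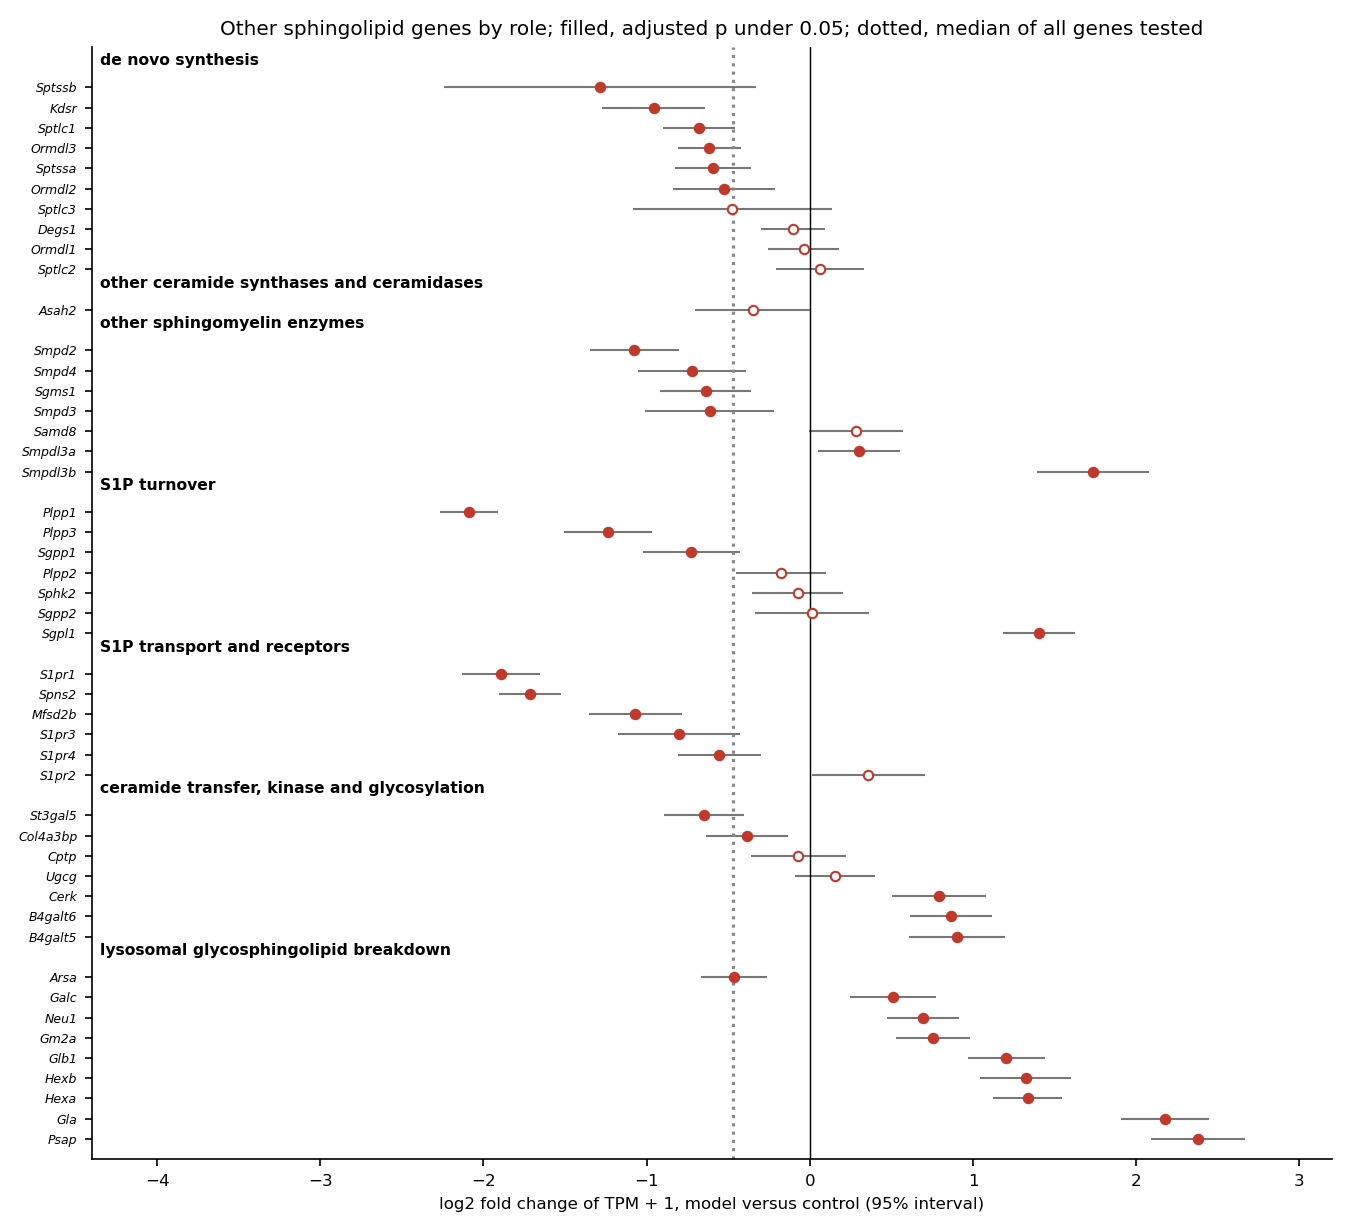
Log2 fold change of TPM + 1 between model and control (horizontal axis, with 95% intervals from limma) of 47 of the 48 other sphingolipid genes tested, grouped by role on the vertical axis. Filled points passed an adjusted p of 0.05 and the dotted line is the median of all genes tested (−0.47). Lysosomal genes lie to the right except Arsa, and genes of S1P transport and reception to the left except S1pr2.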

How the data were processed

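Genes were compared in the 9 libraries from TPM deposited by the authors, made with fastp for trimming and RSEM for quantification, both without a version in the sources used here. The labels name a human build, GRCh38.p6, although the Ensembl identifiers are of mouse genes. Coordinates are from GENCODE M21 (GRCm38), whose reference annotation held 55140 of 55486 Ensembl identifiers. The 3 columns of group means were left out.

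A gene was tested (16080 in all) if 3 or more of the 9 libraries had 1 TPM or more. The fit on log2(TPM + 1) by limma (3.58.1, under R 4.3.3) had 1 mean per group, an intensity trend, 6 residual and 2.88 prior degrees of freedom, 2-sided tests and Benjamini-Hochberg adjustment within each comparison. It was tested on simulated data. Other software was Python (3.11.15) with pandas (2.3.3), and for plots numpy (2.4.6) and matplotlib (3.10.9). The 10 enzymes, the role and marker lists and the tests were chosen with earlier results of these data known. Named genes are the 10 enzymes, up to 4 genes per role with the smallest p between model and control, all S1P receptors and family members in shares. Sptlc2, Ormdl1, Degs1, Arsa, Plpp2, Sgpp2, Col4a3bp, Ugcg and Cptp were named after their values were seen. The values of 1 gene that this rule takes are not reported here.

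Alternatives were a smaller pseudocount (0.1), every gene kept or those averaging 5 TPM or more, 3 scalings (median-ratio, quantile, and TPM recomputed without receptor segments, hemoglobin, mitochondrial genes and Scgb1a1), separate fits per pair of groups, a fit without the trend, a replicate block, each library left out in turn, and M2 and Q1, the lowest in ciliated cell genes, left out together. Of the 10 enzymes 9 had a promoter in the RefSeq table.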

Additional observations from a re-analysis of the deposited data

How the results depend on the processing

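The calls of Acer2, Cers4, Sphk1, Sgms2, Cers6 and Asah1 between model and control and between QJHTD and control held under all 19 alternatives, and no enzyme was called between QJHTD and model under any of them. The largest effect came from the scaling of the libraries. Under median-ratio rescaling 5 enzymes were higher between model and control and 6 between QJHTD and control (3 in each with the TPM as deposited), and of the other sphingolipid genes 25 were higher and 7 lower between model and control (15 and 21 as deposited), and 24 and 7 between QJHTD and control (15 and 22). Of all genes, median-ratio rescaling called 31.8% higher in each comparison, and 28.5% lower between model and control and 28.2% between QJHTD and control. Under quantile normalization 13 of the 48 other sphingolipid genes tested were lower between model and control and 21 higher. Of all genes 38.6% were lower and 24.9% higher in that setting (56.5% and 16.6% as deposited).

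Between model and control Cers2 became 0.38 under median-ratio rescaling and 0.10 with recomputed TPM, Acer3 0.35, 0.21 under quantile normalization and 0.091 with recomputed TPM, and Smpd1 0.30, 0.095 and 0.028 in the same order. Between QJHTD and control Cers2 became 0.35 under median-ratio rescaling and 0.13 with recomputed TPM, Acer3 0.33, 0.20 and 0.12, and Smpd1 0.39, 0.21 and 0.18. Cers5 kept its sign and lost its calls under median-ratio rescaling (−0.075 and −0.047). Cers2 passed with no filter (adjusted p = 0.0400 from limma) and without M1 (0.0369). Between QJHTD and model the differences nearest 0 changed sign. Cers2 became −0.027 under median-ratio rescaling, Acer3 −0.024 and, under quantile normalization, −0.0080, and Asah1 −0.015 under median-ratio rescaling and −0.030 without M2 and Q1. With 1 library left out, Cers2 ranged from −0.021 (without M3) to 0.069, Acer3 from −0.028 (without Q2; −0.0059 without Q3) to 0.10 and Asah1 from −0.023 (without Q1; −0.021 without M3) to 0.0998.

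Libraries share replicate numbers between groups. The deviations of same-numbered libraries correlated between −0.104 and 0.089, and those of differently numbered ones between −0.1512 and 0.1445. The numbers were therefore not taken to pair the libraries. With the replicate number as a block, 7 enzymes were called between model and control and 7 between QJHTD and control, none between QJHTD and model, and 36 other sphingolipid genes between model and control, as without it. The unknown depth limits what can be said of Cers1, Cers3, Acer1 and S1pr5, whose values are low.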
